A study of Mus musculus with 56 samples.

Results

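A set of 9 genes of circulating lipid handling was followed in the livers of 56 female APOE*3Leiden.CETP mice. They are the lipases Lpl and Lipc, the lipase inhibitors Angptl4 and Angptl8, the uptake proteins Cd36, Vldlr and Scarb1, and the HDL remodelling proteins Pltp and Lcat. The set, out of 45513 gene identifiers counted, was chosen by the known roles of its genes, and with earlier results of these counts in view. Those results were the level of Lpl against control and between drugs, and the level of Cd36 between ponatinib and imatinib. The values of these contrasts chose the members in part, so they are given below as a description, with no test.

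The mice carried the human APOE*3Leiden, APOC1 and CETP genes, which slow lipoprotein clearance and give a human-like exchange of lipids between particles. All groups, control included, shared this genotype, an age of 9 to 14 weeks on entering the study and a Western-type diet with 15% cacao butter and 0.15% cholesterol. The livers came from older mice, after a run-in on this diet and the treatment. There were 7 groups of 8 mice. Control mice received the vehicle, 5% carboxymethyl cellulose, and treated mice received 1 of 3 BCR-ABL1 kinase inhibitors by gavage for 16 weeks. Imatinib was given at 150 mg/kg in each of 2 drug gavages a day. Nilotinib was given at 10 or 30 mg/kg and ponatinib at 3 or 10 mg/kg, each in 1 drug gavage a day with a further gavage of the vehicle alone. The 7th group received L-NAME, an inhibitor of nitric oxide synthases, at 0.12 to 0.20% in the drinking water, and its length of treatment is not given in the sources used here. Below, a drug name is followed by its dose in mg/kg. The reads of the human transgenes are not part of the mouse annotation, so human CETP, APOE and APOC1 were not analysed here.

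Lipoprotein lipase and hepatic lipase release fatty acids from triglycerides and phospholipids of circulating particles. The first acts mainly in muscle and fat, where it is anchored to capillaries by Gpihbp1, and in the adult liver its transcript comes largely from macrophages. Angptl4 and Angptl8 restrain lipoprotein lipase. CD36 and the VLDL receptor bring fatty acids and triglyceride-rich particles into cells, while scavenger receptor class B type 1, the product of Scarb1, takes up cholesteryl esters from HDL. In plasma, LCAT esterifies cholesterol on HDL and the phospholipid transfer protein PLTP moves phospholipids between particles. The question of the comparisons below is which of these transcripts differed between treated and control livers, between doses and between drugs.

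The reads assigned to genes ranged from 5342379 to 97473341 per mouse, with a median of 7570238. L-NAME mouse 10 stood apart, with 97473341 reads on genes against at most 17996732 in the other 55 mice, and with 16.8% of reads outside annotated genes. That share was 7.97% ± 0.42 in the control group (SD, n = 8) and 8.53% ± 0.61 in the ponatinib 3 group. It was 9.75% ± 0.69 with nilotinib 10, 10.0% ± 1.82 with imatinib 150, 10.5% ± 1.38 with nilotinib 30, 11.0% ± 2.45 with L-NAME and 11.0% ± 1.99 with ponatinib 10. The share thus moved with treatment, and each member's result that lost its call when the share entered the model is named below. The cause of the shift was not tested. Of the 8 hepatocyte markers, albumin (Alb) lay between 44041 and 118152 CPM in every mouse, and of 5 pancreatic markers 4 were at 0 in at least 55 mice, while Cela2a was at 0 in 26 and reached 4.50 CPM. CPM is the usual scale of a gene's reads relative to all reads on genes in the library, here scaled between libraries by the trimmed mean of M values (TMM). A gene was called when its edgeR quasi-likelihood test gave a Benjamini-Hochberg adjusted p below 0.05 over the 14314 genes tested. All 9 genes passed the filter on low counts. The libraries of a group are numbered as separate mice, and p-values measure the spread between them. In whole liver, fewer cells of a type and less RNA per cell cannot be told apart.

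The sequences around an annotated start of Cd36 and Pltp are shown here because the results below turn on them. They are the 2 members called against control with ponatinib 10 that were not known beforehand in that contrast. Cd36 was, however, chosen in part by its level in the same ponatinib 10 mice against imatinib mice. RefSeq (GRCm38.p6) promoter windows of 300 bases, 250 before and 50 after the annotated start, matched 6 of the 9 members. No window was matched for Lpl, Scarb1 and Angptl4. The Cd36 window is chr5:17835847-17836146 and the Pltp window is chr2:164857659-164857958, both on the minus strand and written 5′ to 3′ in the direction of the gene. The Cd36 window lies inside the gene as located below, at an internal RefSeq start downstream of the outermost one, and the Pltp window is at the outermost start. Capitals mark exact matches, on either strand, to the CCAAT box (CCAAT), the GC box (GGGCGG), the TATA box (TATAAA) and the nuclear receptor half-site (AGGTCA); no 2 marked matches overlap.
Cd36: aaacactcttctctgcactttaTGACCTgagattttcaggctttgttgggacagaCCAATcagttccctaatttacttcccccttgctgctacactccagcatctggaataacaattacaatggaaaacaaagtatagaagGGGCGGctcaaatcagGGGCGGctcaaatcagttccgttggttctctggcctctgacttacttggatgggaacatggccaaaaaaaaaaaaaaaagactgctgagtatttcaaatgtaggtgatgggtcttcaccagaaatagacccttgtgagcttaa
Pltp: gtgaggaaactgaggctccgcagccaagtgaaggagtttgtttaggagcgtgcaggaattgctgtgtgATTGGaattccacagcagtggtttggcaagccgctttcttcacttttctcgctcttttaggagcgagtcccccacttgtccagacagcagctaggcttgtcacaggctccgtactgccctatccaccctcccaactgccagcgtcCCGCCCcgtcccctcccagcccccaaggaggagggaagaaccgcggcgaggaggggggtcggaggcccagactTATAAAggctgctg
In the Cd36 window the GC box occurred at 109 and again at 93 bases before the start, each time followed by ctcaaatcag. A CCAAT box lay 195 bases and a half-site, on the opposite strand, 228 bases before the start. The Pltp window held a CCAAT box 182 bases and a GC box 37 bases before the start, both on the opposite strand, and TATAAA lay 36 bases after it. Among all 32851 mouse promoter windows of this length, 35.7% held the GC box, 37.4% the CCAAT box, 16.3% the half-site and 13.6% TATAAA. These matches are a description of the letters and not of binding.

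Per kilobase of merged exons, the scale on which genes can be compared, Lcat had the highest mean level in control livers, at 323 CPM per kilobase. Cd36, Lipc, Pltp and Angptl8 followed at 87.6, 82.7, 80.8 and 63.9. Scarb1, Angptl4 and Lpl lay at 25.8, 20.6 and 13.4, and Vldlr was lowest, at 2.11 CPM per kilobase. The members also differed in how widely they varied among mice. From the lowest to the highest of the 56 mice, Lcat, Lipc and Cd36 spanned 2.06-fold, 2.07-fold and 2.24-fold, whereas Angptl8 spanned 11.9-fold and Lpl 17.9-fold. Counts behind a single value were lowest for Vldlr, between 58 and 1609 reads per mouse, and highest for Lcat, between 2361 and 47061 reads.

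**Figure D1:**
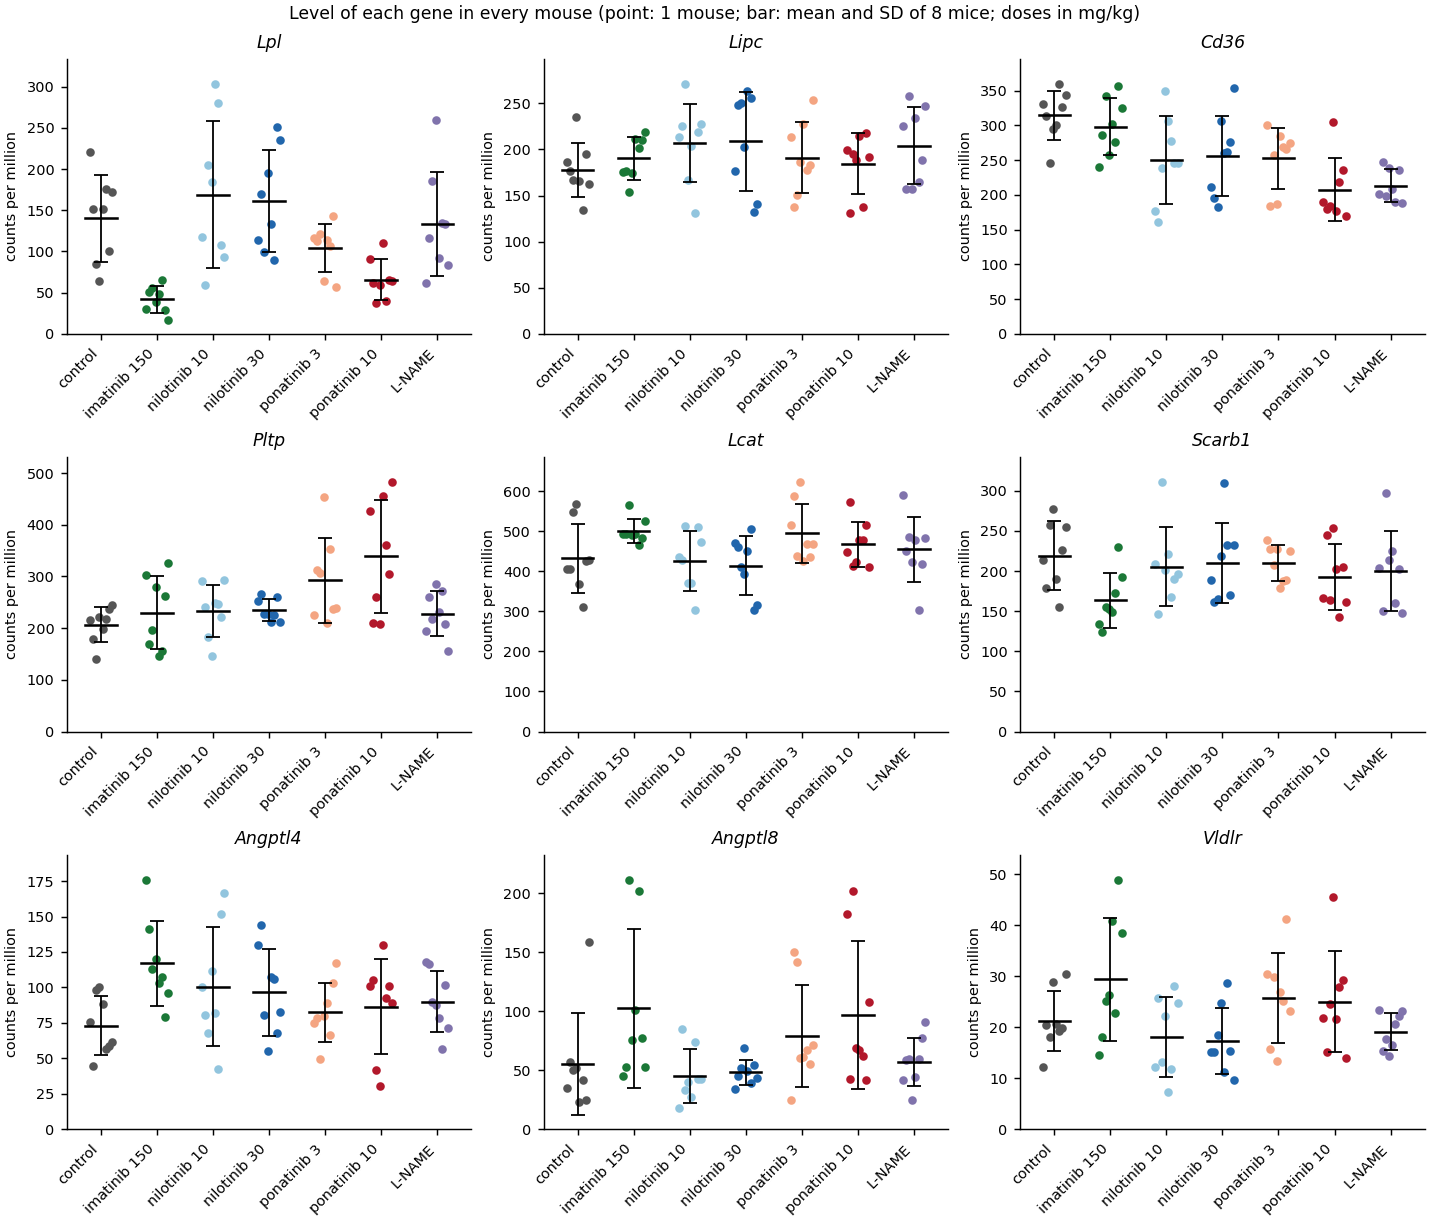
Level of each of the 9 genes in CPM (vertical axes, from 0) in every mouse, by group (horizontal axes; doses in mg/kg). Points are single mice, and bars give the mean and SD of 8 mice. Lpl lay at 17.0 to 64.9 CPM with imatinib 150 against 64.7 to 221 CPM in control mice, and Cd36 and Pltp with ponatinib 10 were shifted in opposite directions.

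Lpl (ENSMUSG00000015568, chromosome 8: 68880491-68907448, plus strand) was lower with imatinib 150 and with ponatinib 10 than in control livers; as these contrasts were known beforehand, no test is given. Control mice lay between 64.7 and 221 CPM with a median of 152. Imatinib 150 mice lay between 17.0 and 64.9 CPM with a median of 43.6. Ponatinib 10 mice lay between 36.9 and 110.4 CPM with a median of 62.6. In all, 7 imatinib mice and 5 ponatinib 10 mice were below every control mouse, and the remaining imatinib mouse was level with the lowest control mouse. The group means were 140.4 ± 52.8 CPM in control, 41.7 ± 16.0 with imatinib 150 and 65.8 ± 24.6 with ponatinib 10 (SD, n = 8 each). The fitted log2 differences from control were -1.76 (SE 0.29) and -1.10 (SE 0.28), or 0.296 and 0.468 times the control level.

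In the other groups Lpl largely overlapped the control range. The medians were 113 CPM with ponatinib 3 (56.9 to 143), 151 CPM with nilotinib 10 (59.1 to 303), 152 CPM with nilotinib 30 (89.3 to 252) and 125 CPM with L-NAME (61.4 to 259.7). From the highest, the group means ran nilotinib 10, nilotinib 30, control, L-NAME, ponatinib 3, ponatinib 10 and imatinib 150. Neighbours in this order differed by less than the larger of their SDs, except ponatinib 3 and ponatinib 10, whose means were 38.6 CPM apart with SDs of 29.2 and 24.6. The difference between the ponatinib doses was -0.67 on the log2 scale (SE 0.28). This value follows from the known contrasts of both doses with control, so no test is given. Ponatinib 10 and imatinib 150 also stood below nilotinib: the log2 difference was -1.36 (SE 0.28) for ponatinib 10 against nilotinib 10, at the same dose in mg/kg, and -1.95 (SE 0.29) for imatinib 150 against nilotinib 30, where all 8 imatinib mice were below every nilotinib 30 mouse.

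Macrophage markers are set beside Lpl here. Of all genes, 10.3% were called against control with imatinib 150, 13.1% with ponatinib 10 and 0.0419% with ponatinib 3. With imatinib 150, 3 of the 10 Kupffer cell markers were called, all lower: the adhesion receptor Adgre1 (log2 -1.35), the apoptosis inhibitor Cd5l (-1.23) and the growth factor receptor Csf1r (-0.76). Of the 8 markers of recruited macrophages, 3 were called, all lower: Gpnmb (-4.74), Trem2 (-2.02) and the integrin Itgax (-1.60). The summed Kupffer cell markers lay between 964 and 1830 CPM in control mice and between 599.6 and 1203 CPM with imatinib 150. With ponatinib 10 that sum lay between 555 and 2793 CPM, 2 of the 10 markers were called and both were higher (Clec4f and Marco). The summed markers of recruited macrophages lay between 135 and 501 CPM in control mice, 103 and 241 CPM with imatinib 150, and 129 and 234 CPM with ponatinib 10, where Gpnmb was the 1 called marker (-4.40). With ponatinib 3, where Lpl largely overlapped the control range, this sum lay between 119 and 234 CPM. There 1 of the 8 markers was called, lower, and the Kupffer cell sum lay between 754 and 2081 CPM. No Kupffer cell marker was at 0 in any mouse, and among the recruited macrophage markers Ly6c2 was at 0 in 6 mice and Itgax, Gpnmb and Itgam in 1 mouse each. With the summed Kupffer cell markers as a covariate, the log2 difference of Lpl from control was -1.15 with imatinib 150 and -0.98 with ponatinib 10, and that between imatinib 150 and nilotinib 30 was -1.10. The last of these no longer passed the threshold used for calls. With the share of reads outside genes as a covariate, the log2 difference from control was -1.61 with imatinib 150 and -0.90 with ponatinib 10, and the latter no longer passed. These contrasts of Lpl were known beforehand, so their values with and without a covariate are a description and not a test. The part of these cells in the level of Lpl was not tested. Of 6 adipocyte markers, 5 were at 0 in 46 to 55 of 56 mice (Adipoq in 52), while Plin4 was at 0 in none and had a median of 9.33 CPM. The 4 skeletal muscle markers were at 0 in 51 to 55 mice. The part of fat or muscle in the level of Lpl was not tested.

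**Figure D2:**
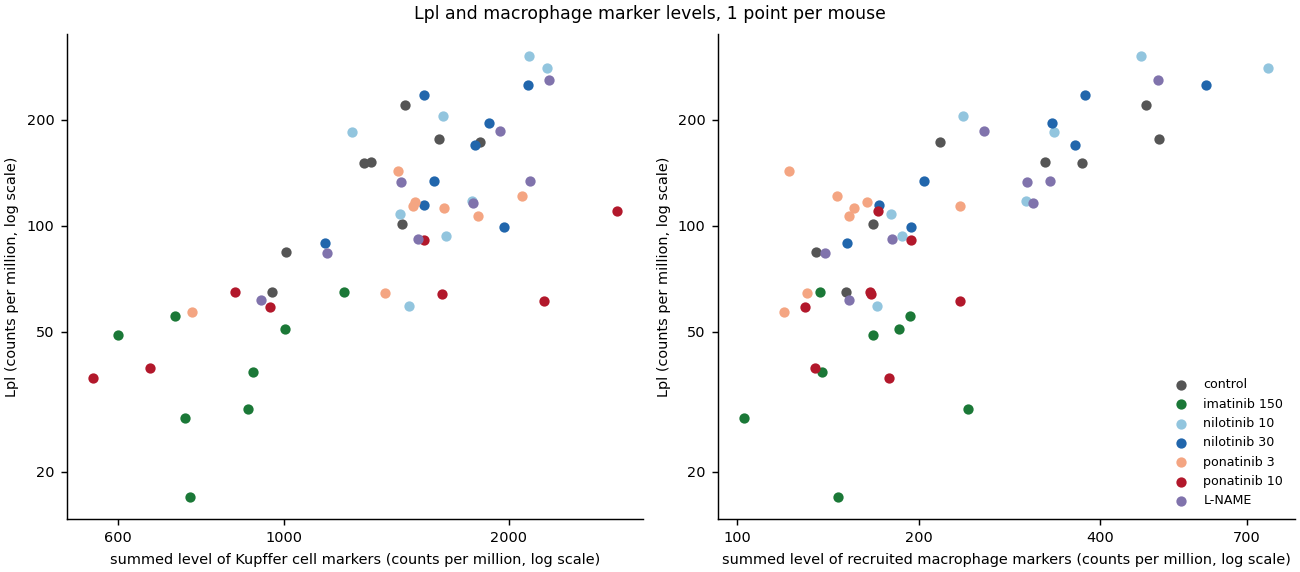
Lpl in CPM (vertical axes, log scale) against the summed CPM of 10 Kupffer cell markers (left) and of 8 recruited macrophage markers (right; horizontal axes, log scale). Each point is 1 of 56 mice, coloured by group. Imatinib 150 mice lie low in Lpl and between 599.6 and 1203 CPM in the Kupffer cell sum; ponatinib 10 mice are low in Lpl while their Kupffer cell sums span 555 to 2793 CPM.

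Lipc (ENSMUSG00000032207, chromosome 9: 70798128-70952226, minus strand), which encodes hepatic lipase, did not pass in any of the 12 comparisons. Control mice lay between 135 and 236 CPM with a median of 171, and group means ran from 178 ± 29.5 CPM in control to 209 ± 53.6 CPM with nilotinib 30 (SD, n = 8). The groups overlapped throughout, and every neighbouring pair of means was closer than its SD. The 95% interval of the log2 difference was -0.19 to 0.38 for imatinib 150 against control and -0.23 to 0.34 for ponatinib 10 against control. The largest difference from control was 0.23 with nilotinib 30 (95% interval -0.05 to 0.52; edgeR adjusted p = 0.410). There 4 of 8 mice were above every control mouse and 1 was below.

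Of the lipase inhibitors, Angptl4 (ENSMUSG00000002289, chromosome 17: 33773750-33781830, minus strand) was higher with imatinib 150. In control mice Angptl4 lay between 44.9 and 100.3 CPM with a median of 68.5, and imatinib 150 mice between 78.9 and 176 CPM with a median of 110.1. Of the 8 imatinib mice, 6 were above every control mouse. The log2 difference was 0.68 (SE 0.22; edgeR adjusted p = 0.0389), from 73.0 ± 20.8 to 117 ± 30.0 CPM (SD, n = 8 each). The call was near its threshold: the adjusted p was 0.105 with the share of reads outside genes as a covariate, 0.106 with the Kupffer cell marker level as a covariate, 0.0585 without imatinib mouse 21 and 0.0749 without control mouse 52. In the other groups the means lay between 82.4 CPM (ponatinib 3) and 100.4 CPM (nilotinib 10), each within the SD of its neighbours, and none passed by edgeR; limma voom called nilotinib 10 (log2 0.66, adjusted p = 0.039). Ponatinib 10 against imatinib 150 gave a log2 difference of -0.44 (95% interval -0.88 to 0.01; adjusted p = 0.481).

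Angptl8 (ENSMUSG00000047822, chromosome 9: 21835510-21837347, plus strand), a feeding-induced hepatocyte protein, had higher means with imatinib 150 and with ponatinib 10, but with a wide spread. The control range of Angptl8 was 23.4 to 158.5 CPM around a median of 45.9. Imatinib 150 mice lay between 44.9 and 212 CPM with a median of 76.6, and ponatinib 10 mice between 41.5 and 202 CPM with a median of 68.1. In each of these treated groups 2 mice exceeded all control mice. The log2 differences from control were 0.88 (SE 0.35; adjusted p = 0.0934) and 0.81 (SE 0.35; adjusted p = 0.118), and neither passed. These values turned on single mice. Without control mouse 52, which lay at 158.5 CPM while the next control mouse was at 57.1, they became 1.34 (adjusted p = 0.00834) and 1.26 (adjusted p = 0.00954). Without ponatinib mouse 14 the latter was 0.56 (adjusted p = 0.338), and with the share of reads outside genes as a covariate they were 0.59 (adjusted p = 0.415) and 0.26 (adjusted p = 0.836). At the same dose in mg/kg, ponatinib 10 against nilotinib 10 gave 1.09 (95% interval 0.39 to 1.79; adjusted p = 0.0774), and imatinib 150 against nilotinib 30 gave 1.08 (0.39 to 1.78; adjusted p = 0.0661, or 0.0427 without control mouse 52). The latter passed in 2 of 8 other settings. These were the share of reads outside genes as a covariate (1.16, edgeR adjusted p = 0.0399) and only the 2 groups compared (1.09, edgeR adjusted p = 0.0203). Angptl8 lies within Dock6 on the opposite strand, and whether the counting used strand is not given in the sources used here, so reads of the 2 genes may not be told apart.

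Cd36 (ENSMUSG00000002944, chromosome 5: 17781690-17888801, minus strand), the fatty acid translocase, was lower with ponatinib 10 and with L-NAME. Cd36 in control mice lay between 246 and 359.6 CPM with a median of 320.3. Ponatinib 10 mice lay between 169.5 and 305 CPM with a median of 187.0, and L-NAME mice between 188 and 247 CPM with a median of 204. In all, 7 of 8 mice in each of the 2 groups were below every control mouse, and the exceptions were ponatinib mouse 18, at 305 CPM, and L-NAME mouse 10, at 247 CPM. The level fell from 315 ± 35.0 CPM to 207 ± 45.6 CPM with ponatinib 10, a log2 difference of -0.60 (SE 0.13; edgeR adjusted p = 0.00128), or 0.659 times control. With L-NAME it fell to 213 ± 23.4 CPM, a log2 difference of -0.56 (SE 0.13; adjusted p = 0.00276). Both comparisons share the control mice. Cd36 was chosen in part by its level in these same ponatinib 10 mice against imatinib mice. The p-values of Cd36 that involve the ponatinib 10 group, here and below, are therefore a description and not an independent test. With the share of reads outside genes as a covariate, the adjusted p was 0.0356 for ponatinib 10 (log2 -0.54) and 0.0793 for L-NAME (log2 -0.49).

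The intermediate groups lay between these values. Cd36 had log2 differences from control of -0.33 with nilotinib 10 (adjusted p = 0.209), -0.30 with nilotinib 30 (adjusted p = 0.194) and -0.32 with ponatinib 3 (adjusted p = 0.374). With limma voom and sample quality weights in place of edgeR, these 3 differences passed, at adjusted p = 0.0411, 0.0438 and 0.0465. Imatinib 150 left Cd36 at 298 ± 41.2 CPM, with a log2 difference from control of -0.08 (95% interval -0.34 to 0.19). The known contrast between ponatinib 10 and imatinib 150 was -0.53 (SE 0.13; -0.50 without ponatinib mouse 14), and 7 of 8 ponatinib 10 mice were below every imatinib mouse. Between the ponatinib doses it was -0.29 (95% interval -0.55 to -0.02; adjusted p = 0.304). Ponatinib 10 against nilotinib 10 gave -0.27 (95% interval -0.54 to -0.01; adjusted p = 0.312).

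Vldlr (ENSMUSG00000024924, chromosome 19: 27216484-27254231, plus strand), the VLDL receptor, was the least abundant member and was not called in any comparison. Among control mice it lay between 12.2 and 30.5 CPM with a median of 20.2, and imatinib 150 mice between 14.5 and 49.0 CPM with a median of 25.7. The largest difference was between imatinib 150 and nilotinib 30, 29.4 ± 12.1 against 17.3 ± 6.51 CPM (log2 0.76, 95% interval 0.27 to 1.26; adjusted p = 0.0694). Nilotinib 30 mice lay between 9.58 and 28.7 CPM. Above all of them were 3 imatinib mice, and the lowest nilotinib 30 mouse was below every imatinib mouse.

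Scarb1 (ENSMUSG00000037936, chromosome 5: 125277087-125341094, minus strand), the HDL receptor of hepatocytes, was at the threshold with imatinib 150. In control mice it lay between 155 and 277 CPM with a median of 219.9, and imatinib 150 mice between 124 and 230.0 CPM with a median of 153. Of the 8 imatinib mice, 5 were below every control mouse. The means were 219 ± 42.8 and 164 ± 34.1 CPM (SD, n = 8 each), with a log2 difference of -0.42 (SE 0.15; edgeR adjusted p = 0.0503). With DESeq2 in place of edgeR the adjusted p was 0.0317, and with limma voom 0.00306, whereas it was 0.331 with the share of reads outside genes and 0.114 with the Kupffer cell marker level as a covariate. It also passed without L-NAME mouse 10, ponatinib mouse 14, ponatinib mouse 18, nilotinib mouse 3 or nilotinib mouse 19, at adjusted p between 0.0367 and 0.0485, but not without control mouse 52 (adjusted p = 0.0969) or imatinib mouse 21, which are of the 2 groups compared. Ponatinib 10 had a log2 difference from control of -0.19 (95% interval -0.48 to 0.10), and the nilotinib, ponatinib 3 and L-NAME groups had differences between -0.13 and -0.06; none of them passed.

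Pltp (ENSMUSG00000017754, chromosome 2: 164839518-164857711, minus strand) was higher with ponatinib 10. Control mice lay between 141 and 245 CPM with a median of 217, ponatinib 3 mice between 210.2 and 454 CPM with a median of 273, and ponatinib 10 mice between 208 and 483 CPM with a median of 333. In all, 6 of 8 ponatinib 10 mice and 4 of 8 ponatinib 3 mice were above every control mouse. The level went from 207 ± 33.8 CPM in control to 339 ± 109.2 CPM with ponatinib 10 (SD, n = 8), a log2 difference of 0.71 (SE 0.17; edgeR adjusted p = 0.00235), or 1.64-fold. Ponatinib 3, at 292 ± 82.4 CPM, had a log2 difference of 0.50 (SE 0.17; adjusted p = 0.266), and the 2 doses differed by 0.21 (95% interval -0.12 to 0.54; adjusted p = 0.621). With the share of reads outside genes as a covariate, the difference of ponatinib 10 from control was 0.61 (adjusted p = 0.0732).

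The other groups had Pltp means between 228 CPM (L-NAME) and 235 CPM (nilotinib 30). Ponatinib 10 lay above all of them, but not past the threshold: the log2 difference was 0.53 against nilotinib 10 (95% interval 0.20 to 0.87; adjusted p = 0.0694), 0.53 against nilotinib 30 (0.19 to 0.86; adjusted p = 0.0861) and 0.56 against imatinib 150 (0.23 to 0.89; adjusted p = 0.0855). Without ponatinib mouse 18, the lowest of its group in Pltp, these 3 differences passed, at adjusted p = 0.0266, 0.0372 and 0.0308, and with DESeq2 in place of edgeR at 0.0475, 0.0493 and 0.0402. Over the 8 other settings as a whole they passed in 3, 3 and 1, and of 7 mice left out in turn only that 1 made them pass; against imatinib 150 the log2 difference fell to 0.39 (adjusted p = 0.395) with the Kupffer cell marker level as a covariate. Pltp overlaps Ctsa on the opposite strand, with the same limit on strand as above.

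Lcat (ENSMUSG00000035237, chromosome 8: 105939551-105943382, minus strand) was not called in any comparison. Control mice lay between 312 and 568 CPM with a median of 417, and imatinib 150 mice between 466 and 565 CPM with a median of 494. All imatinib mice fell within the control range, and their SD of 30.6 CPM was smaller than the 86.1 CPM of control. The log2 difference of imatinib 150 from control was 0.21 (95% interval -0.02 to 0.45; adjusted p = 0.273), and against nilotinib 30 it was 0.28 (0.04 to 0.51; adjusted p = 0.207). An antisense transcript, Gm16156, overlaps the gene.

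Taken by comparison, few of the 9 genes were called, and their share is set here against that of all genes. Lpl passed the threshold with imatinib 150 and with ponatinib 10, but was known in both contrasts, so nothing is read from it and it is left out of these counts. With imatinib 150 against control 1 of the 8 other members was called, Angptl4, where 10.3% of all 14314 genes were called. With ponatinib 10 against control 2 of 8 were called, Cd36 and Pltp, where 13.1% of all genes were. Of these, Cd36 was chosen in part by its level in the same ponatinib 10 mice against imatinib 150. With L-NAME 1 of 8 was called, Cd36, where 11.8% of all genes were. The median log2 difference of the 9 genes, Lpl included, was 0.15 with imatinib 150, 0.11 with ponatinib 10 and 0.04 with L-NAME, beside medians of -0.02, -0.01 and 0.02 over all genes. None of the 9 was called with nilotinib 10 (1.41% of all genes), nilotinib 30 (5.77%) or ponatinib 3 (0.0419%) by edgeR or DESeq2. In these 3 comparisons limma voom called 2, 1 and 1, and 2, 1 and 2 had an unadjusted p below 0.05. Over all 14314 genes limma voom called 1240, 2349 and 571, and 2035, 2673 and 1426 had an unadjusted p below 0.05.

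**Figure D3:**
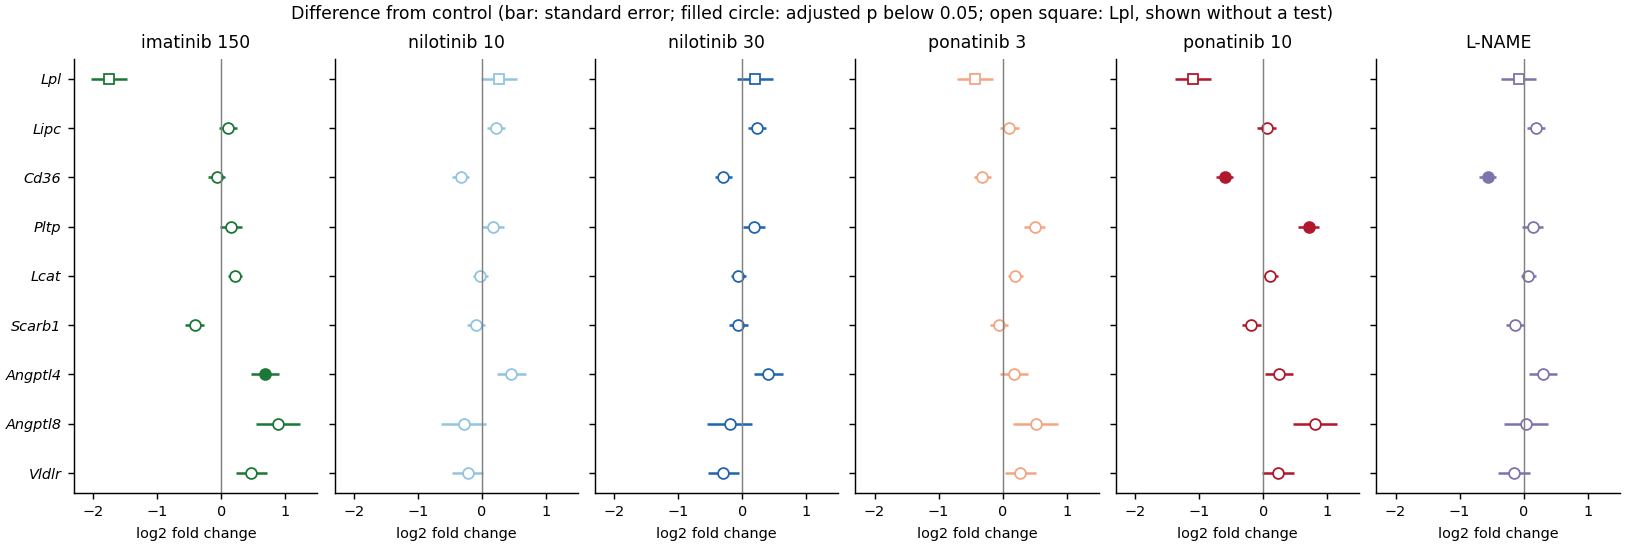
Fitted log2 difference from control (horizontal axes) of the 9 genes (rows) in each of the 6 treated groups, with bars for the standard error. Filled circles mark an adjusted p below 0.05, and Lpl is drawn as an open square because it is given without a test. Cd36 is filled with ponatinib 10 (-0.60) and L-NAME (-0.56), Pltp with ponatinib 10 (0.71) and Angptl4 with imatinib 150 (0.68). Cd36 was chosen in part by its level in the ponatinib 10 mice, so its mark in that group is a description.

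Between doses, no member was called by edgeR. Nilotinib 30 and nilotinib 10 differed in 0% of all genes by edgeR, in 2 genes by DESeq2 and in none by limma voom, with 812 genes at an unadjusted p below 0.05. All 9 members had log2 differences between -0.07 and 0.09 there, and none had an unadjusted p below 0.05 or was called by DESeq2 or limma voom. The intervals of these differences reached from -0.62 to 0.78. Ponatinib 10 and ponatinib 3 differed in 1.39% of all genes. Cd36 had an unadjusted p below 0.05 there, as did 2056 of all genes. Lpl did so too, but its dose difference follows from contrasts known beforehand, so nothing is read from it. DESeq2 called no member (431 of all genes) and limma voom called 1, Cd36 (995 of all genes).

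Nilotinib and ponatinib were given at 1 shared dose, 10 mg/kg, where 2.06% of all genes were called. Of the members only Lpl passed there, in a contrast that was known beforehand, so nothing is read from it. The doses of the other pairs differ, so their values are set side by side: ponatinib 10 against nilotinib 30 (1.88% of all genes) and imatinib 150 against nilotinib 30 (3.59%) each called Lpl, and ponatinib 10 against imatinib 150 (1.08%) called Cd36, all known beforehand. For the 8 members other than Lpl, the 95% intervals of the difference between ponatinib 10 and nilotinib 10 reached from -0.66 (Angptl4) to 1.79 (Angptl8). None of these 8 passed by edgeR with 8 mice in each group.

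The other genes of the pathway were read from 4 lists of 38 genes, all tested. With imatinib 150, 14 were called (9 higher, 5 lower), with ponatinib 10 also 14 (9 higher, 5 lower), 10 with L-NAME (6 higher, 4 lower) and 9 with nilotinib 30 (5 higher, 4 lower). Of all genes, 10.3%, 13.1%, 11.8% and 5.77% were called in these comparisons. With the share of reads outside genes as a covariate, these 4 counts of pathway genes were 9, 4, 4 and 2. The share of all genes called with this covariate is not given here, so whether the drop is particular to these genes cannot be read. The pathway genes named below were called without the covariate, and any of them may lose its call with it. A single gene was called with nilotinib 10 and none with ponatinib 3 by edgeR. By DESeq2 these last counts were 7 and 0 (504 and 48 of all genes), and by limma voom 11 and 6 (1240 and 571 of all genes). At an unadjusted p below 0.05 there were 12 and 7 pathway genes (2035 and 1426 of all genes). These lists were chosen with earlier results of these data known, and the levels of Apoa1, Apoa2 and Apoc2 with imatinib 150 and nilotinib 30 were among those results. The counts with imatinib 150 and nilotinib 30, here and by list below, include any of these genes that passed. Those counts are therefore a description and not a test. Of the 8 hepatocyte markers, 2 were called lower and 1 higher than control with imatinib 150 and with ponatinib 10, 2 lower with nilotinib 10 and with nilotinib 30, and 3 lower with L-NAME. Cps1 was lower in all 5 of these groups (log2 between -0.92 and -0.81), Tat with imatinib 150, both nilotinib doses and L-NAME, and Cyp2f2 with ponatinib 10 and L-NAME, while Ttr was higher with imatinib 150 (0.45) and ponatinib 10 (0.73). Their part in these results was not tested. The pathway genes named below against control also differed in length. Those higher had 537 (Apoa2) to 1236 (Apoa1) bases of merged exons, and those lower 3836 (Ppara) to 17717 (Lrp1). The part of transcript length in these differences was not tested.

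Lipases and their control: of 9 genes, 4 were called with imatinib 150, 4 with ponatinib 10, 3 with L-NAME and 2 with nilotinib 30, all higher. Apoc3, an inhibitor of triglyceride clearance, went from 923 CPM in control to 1672 CPM with imatinib 150 (log2 0.86, SE 0.14), 1747 CPM with ponatinib 10 (0.92, SE 0.14) and 1522 CPM with L-NAME (0.72, SE 0.14). Apoc1, another inhibitor of lipases, went from 1261 CPM to 2467 CPM with L-NAME (0.97, SE 0.16). Apoc2, the cofactor of lipoprotein lipase, was called with L-NAME (0.65) and ponatinib 10 (0.49; SE 0.13 each). With imatinib 150, where the level of Apoc2 was known beforehand, the log2 difference was 0.49 (SE 0.13), as a description. Gpihbp1, the capillary anchor of lipoprotein lipase, was lower with ponatinib 10 than with nilotinib 30 (10.2 against 27.7 CPM; log2 -1.44, SE 0.29; edgeR adjusted p = 0.00268) and than with imatinib 150 (21.4 CPM; -1.07, SE 0.28; adjusted p = 0.0421). Of 8 sinusoidal endothelial markers, 3 were also lower with ponatinib 10 than with nilotinib 30, Clec4g (-1.07), Fcgr2b (-0.71) and Stab2 (-0.68), and their sums lay between 116 and 335 CPM against 347 and 476 CPM. Against imatinib 150, 1 of the 8 was called, Clec4g (-0.95), 4 had an unadjusted p below 0.05, and the sums with imatinib 150 lay between 301 and 509 CPM. Of all genes, 1.88% were called with ponatinib 10 against nilotinib 30 and 1.08% against imatinib 150. The part of endothelial cells in the level of Gpihbp1 was not tested.

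Lipoprotein and fatty acid uptake: of 12 genes, 1 was higher and 1 lower with imatinib 150, 2 higher and 2 lower with ponatinib 10, 1 higher and 3 lower with L-NAME, and 1 higher and 2 lower with nilotinib 30. Fabp1, the hepatocyte fatty acid binding protein, went from 1817 CPM in control to 4018 CPM with imatinib 150 (log2 1.14, SE 0.21) and 3632 CPM with ponatinib 10 (1.00, SE 0.21), the direction opposite to Cd36 in the latter group. Lrp1, a receptor for remnant particles, fell from 1055 CPM to between 655 and 722 CPM with imatinib 150, nilotinib 10 and nilotinib 30, and was also called lower with ponatinib 10 (log2 -0.51) and L-NAME (-0.52).

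HDL formation and remodelling: of 8 genes, 4 were higher and 2 lower with imatinib 150, 2 higher and 2 lower with ponatinib 10, and 2 higher with nilotinib 30 and with L-NAME. Apoa2, a structural HDL protein, went from 3517 CPM in control to 7009 CPM with imatinib 150 (log2 0.99, SE 0.16) and 6978 CPM with ponatinib 10 (0.99, SE 0.16). The level of Apoa2 with imatinib 150 was known beforehand and is a description. Apoa1, the main HDL protein, went from 4915 to 8864 CPM with ponatinib 10 (0.85, SE 0.18). Abcg1, which exports cholesterol to HDL and is abundant in macrophages, fell from 48.6 to 17.5 CPM with imatinib 150 (-1.48, SE 0.25; adjusted p = 5.2e-05) and to 19.4 CPM with ponatinib 10 (-1.33, SE 0.25; adjusted p = 0.000184), the 2 groups in which Lpl lay lowest. Abca1, which loads lipid onto apolipoprotein A-I, was called lower in both groups as well (-0.48 and -0.43, SE 0.13 each). The part of macrophages in the level of Abcg1 was not tested.

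Nuclear receptors and partners: of 9 genes, 2 were lower with imatinib 150 and with nilotinib 30, 1 was lower with L-NAME, and 1 was higher and 1 lower with ponatinib 10. Ppara, the fatty acid receptor of hepatocytes, fell from 45.2 to 14.8 CPM with nilotinib 30 (log2 -1.61, SE 0.28; adjusted p = 0.000262), and Rxra, its partner in binding DNA, from 505 to 334 CPM (-0.60, SE 0.13; adjusted p = 0.00203).

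**Figure D4:**
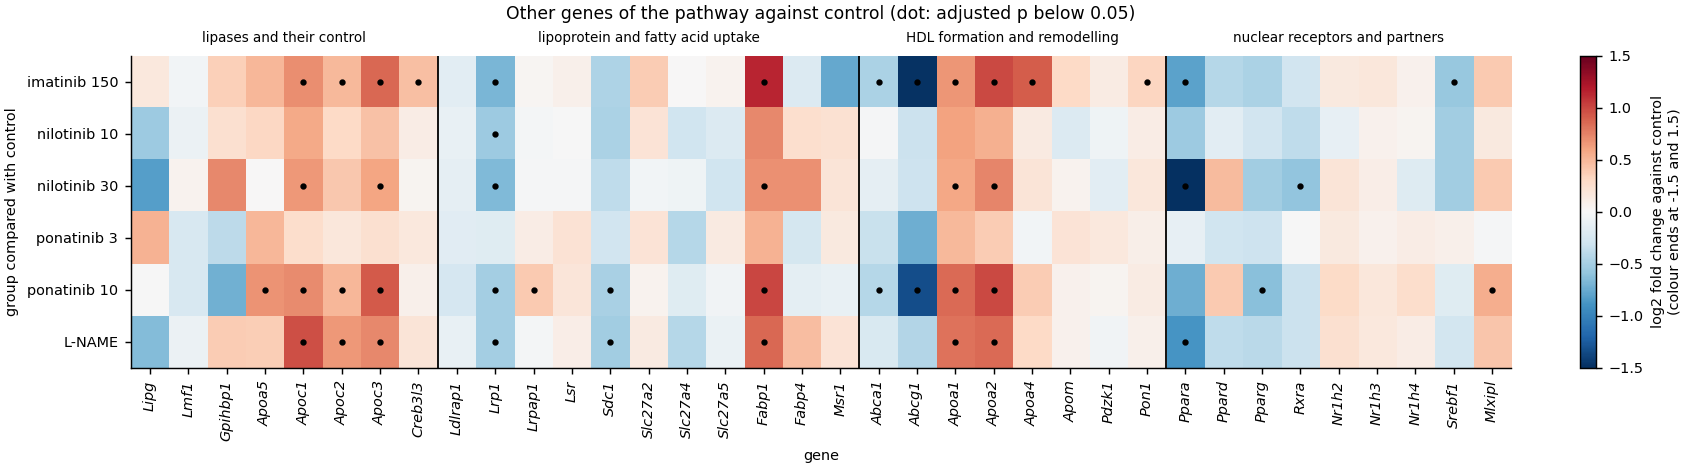
Log2 difference from control (colour, blue lower and red higher, ending at -1.5 and 1.5) of pathway genes (columns, in 4 lists; those not reported here are left out) in the 6 treated groups (rows). Dots mark an adjusted p below 0.05. Red columns for Apoc1, Apoc3, Fabp1, Apoa1 and Apoa2 are dotted with imatinib 150, nilotinib 30, ponatinib 10 and L-NAME, and Abcg1 is dotted with imatinib 150 and ponatinib 10.

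The genes most like each member across mice were named by Pearson's r of log2 CPM over the 56 mice after each group's mean was subtracted, as a description with no test. All values come from the same libraries and share their depth and composition. For Lpl they were Clec7a (r = 0.81, Spearman's rho = 0.80), Plekho2 (0.79) and Lgals3 (0.78). For Scarb1 they were Apob (0.81), F5 (0.81) and Tm9sf2 (0.76), for Lcat F2 (0.78), Ndrg2 (0.74) and Tfr2 (0.73), and for Angptl4 Acaa1a (0.77), Lgals4 (0.76) and Creb3l3 (0.74). For Lipc they were Sult2a8, Rdh7 and Cdo1 (0.73 to 0.71), for Vldlr Ube2r2, Atp5b and Rnf13 (0.68 to 0.63) and for Cd36 App, Timp2 and Ugt2b35 (0.68 to 0.67). The likeness was lowest for Angptl8, with Tra2a, Fgfr3 and Rpl9 (0.57 to 0.52), and for Pltp, with Cyp51, Tax1bp3 and Cyfip2 (0.55 to 0.53). Among the members themselves, Angptl4 and Lcat had the highest r, 0.49, and Lpl and Lcat the lowest, -0.50.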

How the data were processed

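Liver RNA of 56 mice (8 per group) was sequenced from poly(A) libraries (NEBNext Ultra) on a NextSeq 500. Per the labels, the authors aligned reads with TopHat2 2.0.14 and Bowtie2 2.1.0 to GRCm38, with SAMtools 0.1.18, and deposited raw counts per gene made with HTSeq 0.6.1p1; its strand setting is not given in the sources used here. Rows that name no gene were kept out of library sizes and tests; they held 38.9% to 49.8% of the counted records per mouse (reads outside genes, ambiguous reads and alignments that were not unique). The share of reads outside genes in the report is among uniquely aligned reads. Of 45513 gene identifiers, 44585 were matched to names in GENCODE vM21 and 928 were not.

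Counts were analysed in R 4.3.3 with edgeR 4.0.16: filterByExpr left 14314 genes, TMM factors scaled the libraries, and 1 quasi-likelihood model with 7 groups gave 12 comparisons, each adjusted over all genes by the Benjamini-Hochberg method; p-values were not adjusted over comparisons. Standard errors and 95% intervals were taken from the moderated test. CPM per kilobase used merged exons of GENCODE vM21. Depth ranged from 5342379 to 97473341 reads on genes per mouse, and the lowest member count was 58 reads; the number of mice limits the precision. Alternatives were DESeq2 1.42.0 (size factors and Wald test), limma 3.58.1 voom with sample quality weights, no filter, only the groups compared, 48 mice without L-NAME, covariates for the share of reads outside genes and for the Kupffer cell marker level, an unadjusted threshold of 0.01, and levels without TMM factors. Leaving out 1 of 7 mice was added after seeing the data. The fit was tested on simulated data with known changes.

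The 9 members, the pathway and marker lists and the tests were chosen with earlier results of these data known. Genes named were all members, up to 6 called pathway genes per comparison by p (Apoc2, Abca1, Gpihbp1 and Lrp1 are also described outside that rank, for their role), and the 3 most like genes per member. Some genes of the lists are counted but not reported here by name. Analyses and figures used Python with pandas 2.3.3, numpy 2.4.6, scipy 1.17.1 and matplotlib 3.10.9.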

Additional observations from a re-analysis of the deposited data

Results flagged for a closer look

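In 2 cases the level of a member in 1 mouse lay far from the other mice of its group, with Dixon's ratio (the gap to the nearest mouse over the range of the group) above its 95% critical value for 8 mice, among 63 pairs of member and group, where chance gives about 1 in 20. Angptl8 was 158.5 CPM in control mouse 52, with the nearest control mouse at 57.1 CPM (ratio 0.75). Scarb1 was 311.2 CPM in nilotinib 10 mouse 19, with the nearest mouse of that group at 221.6 CPM (ratio 0.544).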

How the results depend on the processing

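No log2 difference of a member reversed a call under any alternative. Under the other settings listed above 826 differences kept their side of the threshold, 21 passed only under the alternative and 8 passed only in the model reported; after leaving out single mice, chosen after seeing the data, these counts were 742, 11 and 3. All 63 group levels moved by less than 1 SD without TMM factors. No paired analysis was possible because every mouse has its own number and no number is shared between groups.

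The members called, Lpl included, changed as follows. Contrasts known beforehand, of Lpl and of Cd36 between ponatinib and imatinib, are counted as a description. With the share of reads outside genes as a covariate, 1 was called with imatinib 150, 1 with ponatinib 10, 0 with L-NAME and 2 for imatinib 150 against nilotinib 30. With the Kupffer cell marker level as a covariate, 1 was called with imatinib 150, 2 for ponatinib 10 against nilotinib 10 and 2 against nilotinib 30, and 0 for ponatinib 10 against imatinib 150 and for imatinib 150 against nilotinib 30. Limma voom called 2 with nilotinib 10, 1 with nilotinib 30, 1 with ponatinib 3, 1 between ponatinib doses, 2 and 3 for ponatinib 10 against nilotinib 10 and 30, and 2 for imatinib 150 against nilotinib 30. DESeq2 called 2 for ponatinib 10 against each of nilotinib 10, nilotinib 30 and imatinib 150. In each comparison named here for limma voom or DESeq2, that method also called more of all genes than edgeR did. With only the 2 groups compared, 0 were called for ponatinib 10 against imatinib 150 and 2 for imatinib 150 against nilotinib 30. At an unadjusted p below 0.01, 1 passed with ponatinib 3, 3 for ponatinib 10 against nilotinib 10 and 3 against nilotinib 30, 2 against imatinib 150 and 3 for imatinib 150 against nilotinib 30.

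The other pathway genes called changed as follows. Counts that involve imatinib 150 or nilotinib 30 may hold genes known beforehand and are a description. The covariate of reads outside genes left 9 of 14 with imatinib 150, 0 of 1 with nilotinib 10, 2 of 9 with nilotinib 30, 4 of 14 with ponatinib 10, 4 of 10 with L-NAME and 0 of 2 between ponatinib doses, as counts that need not be the same genes. The Kupffer cell covariate gave 8 with imatinib 150, 6 with nilotinib 10, 1 between ponatinib doses, 0 and 2 for ponatinib 10 against nilotinib 10 and 30, 0 against imatinib 150 and 0 for imatinib 150 against nilotinib 30. Limma voom gave 11 with nilotinib 10, 14 with nilotinib 30, 6 with ponatinib 3, 7 between ponatinib doses, 4 and 8 for ponatinib 10 against nilotinib 10 and 30, and 13 for imatinib 150 against nilotinib 30. DESeq2 gave 7 with nilotinib 10 (3 with its size factors in edgeR) and 5 for ponatinib 10 against nilotinib 10. Over all genes limma voom and DESeq2 also called more than edgeR in each of these comparisons. With only the 2 groups compared there were 3 with nilotinib 10, and 0 between ponatinib doses and for ponatinib 10 against nilotinib 10 and against imatinib 150; 48 mice without L-NAME gave 2 with nilotinib 10, and no filter gave 1 between ponatinib doses. At an unadjusted p below 0.01 there were 10 with nilotinib 10, 4 with ponatinib 3, 1 between nilotinib doses, 4 between ponatinib doses, 8, 7 and 3 for ponatinib 10 against nilotinib 10, nilotinib 30 and imatinib 150, and 11 for imatinib 150 against nilotinib 30.

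Without single mice, the members called ranged from 1 to 3 with imatinib 150, 3 to 4 with ponatinib 10, 1 to 2 for ponatinib 10 against nilotinib 10 and 30, 0 to 2 against imatinib 150, and 1 to 2 for imatinib 150 against nilotinib 30. The other pathway genes ranged from 0 to 5 with nilotinib 10, 1 to 5 between ponatinib doses, 2 to 7 for ponatinib 10 against nilotinib 10 and 0 to 1 against imatinib 150. For the pathway genes, leaving out ponatinib mouse 18 gave 5, 5 and 7 in the first 3 of these, control mouse 52 gave 0 and nilotinib mouse 19 gave 3 with nilotinib 10, ponatinib mouse 14 gave 2 with nilotinib 10 and 1 between ponatinib doses, and imatinib mouse 21 gave 0 for ponatinib 10 against imatinib 150. For the members, the lowest count came without imatinib mouse 21 for imatinib 150 against control and without ponatinib mouse 14 for ponatinib 10 against imatinib 150; the highest came without ponatinib mouse 18 for ponatinib 10 against the other drugs, and without control mouse 52 for ponatinib 10 against control and imatinib 150 against nilotinib 30. The cause of these changes was not tested, and the number of mice and the share of reads outside genes limit small differences.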
